A study of Mus musculus with 9 samples.

Results

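Akr1d1 and 9 other genes of steroid metabolism and glucocorticoid response were described in mouse back skin with dermatitis. They are the enzymes Akr1d1, Cyp7b1, Hsd11b1, Hsd17b2, Srd5a1, Cyp11a1 and Cyp27a1, the cholesterol carrier Star, the glucocorticoid receptor Nr3c1 and its target Fkbp5. The 10 genes were picked by name from the 34637 genes of the FPKM table, and all 10 were among the 20817 genes with enough counts to be tested. They were proposed with their levels in these same libraries in view, led by Akr1d1 and Cyp7b1 for their difference between the groups. Their levels and fold changes are therefore a description and carry no test.

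Both groups were male C57BL/6 mice, 6 to 8 weeks old, whose shaved backs were painted with DNCB (2,4-dinitrochlorobenzene, a small reactive molecule that raises a contact allergy). DNCB was applied at 1% on day 1 and at 0.5% from day 4 to day 21. The Model group then received water, and the FJDHF-M group received Fangji Dihuang formulation, a herbal decoction, by mouth daily after day 7, and skin was taken on day 28. Libraries without DNCB were not analysed here, so each difference is between treated and untreated dermatitis. The column codes of the tables are unexplained, and the 5 MR columns were read as FJDHF-M and the 4 MXL columns as Model because the group sizes match and MX abbreviates the Chinese mo xing (model). Every direction given here rests on that assignment, and whether a code such as MR3_4 marks pooled mice is not known. Nothing in the sources used here ties a column to a single mouse, so p-values measure the spread between libraries.

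Total counts were 74648669 to 79474215 per library, so that 3 counts, taken as the floor, correspond to 0.0375 to 0.0415 CPM, the count scaled by edgeR to library size with TMM factors. All 8 basal keratinocyte markers and all 7 fibroblast markers were above the floor in at least 1 library, with summed levels of 1720 to 7540 CPM and 18900 to 47100 CPM per library. The skeletal muscle markers summed to between 479 and 14100 CPM, so the libraries held very different amounts of muscle RNA. Over all 20817 genes edgeR's quasi-likelihood test called no gene as differing at least 2-fold with an adjusted p under 0.05 (0.0%), while DESeq2 called 2 and limma 0. At an unadjusted p under 0.05 edgeR found 161 genes higher in FJDHF-M (0.773%) and 165 lower (0.793%).

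Skin makes and breaks down steroids itself. Star carries cholesterol into mitochondria, Cyp11a1 cuts its side chain to give pregnenolone, and later enzymes turn this into glucocorticoids and androgens. Hsd11b1 regenerates active glucocorticoid from its inert form, the steroid reductases Akr1d1 and Srd5a1 saturate the same double bond of the steroid ring in opposite orientations, and Hsd17b2 inactivates androgens and oestrogens. Cyp27a1 and Cyp7b1 act on cholesterol and on oxysterols, its oxidised derivatives, which lead to bile acids in the liver and act as signals elsewhere. Glucocorticoids bind Nr3c1, which switches on Fkbp5, a chaperone partner that lowers the receptor's own hormone binding.

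Akr1d1 and Srd5a1 are the pair of reductases, and the 250 bases before their annotated RefSeq starts are shown because these stretches differ in composition. The Akr1d1 stretch is chr6:37529923-37530172 on the plus strand and the Srd5a1 stretch chr13:69611464-69611713 on the minus strand, both of GRCm38.p6 and written 5′ to 3′. Capitals mark matches, on either strand, to the nuclear receptor core AGGTCA, to the CCAAT box and to the GC box with the letters GGGCGG.
Akr1d1: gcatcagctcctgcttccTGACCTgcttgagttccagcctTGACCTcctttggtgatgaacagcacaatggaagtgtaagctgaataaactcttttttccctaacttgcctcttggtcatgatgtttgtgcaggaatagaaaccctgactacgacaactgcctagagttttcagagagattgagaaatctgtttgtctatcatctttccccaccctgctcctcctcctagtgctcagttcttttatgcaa
Srd5a1: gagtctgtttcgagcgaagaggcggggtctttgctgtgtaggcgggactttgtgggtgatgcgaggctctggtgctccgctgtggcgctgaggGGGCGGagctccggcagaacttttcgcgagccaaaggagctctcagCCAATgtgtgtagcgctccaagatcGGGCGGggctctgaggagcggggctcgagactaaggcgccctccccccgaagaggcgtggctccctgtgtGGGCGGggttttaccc
GC content was 45.2% in the Akr1d1 stretch and 64.8% in the Srd5a1 stretch. The Akr1d1 stretch held AGGTCA, the core letters read by many nuclear receptors, 2 times as its reverse complement TGACCT, with first bases 232 and 210 bases before the start. In windows from 250 bases before to 50 after the start, AGGTCA occurred in 16.3% of 32851 promoters, so it is a common string. The Srd5a1 stretch held GGGCGG 3 times and CCAAT once, strings found in 35.7% and 37.4% of all promoters. None of the 7 promoters that the table holds for 6 of the 10 genes contained AGAACA, the core letters of a glucocorticoid receptor element, which 19.0% of all promoters do. A match is a description of letters and not a bound site. Cyp7b1, Hsd17b2, Star and Nr3c1 are named only.

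Akr1d1 (chr6:37530173-37568815, plus strand, 9 exons, coding length 975 bases) was the gene with the widest gap between the groups. In the FJDHF-M libraries its level was 19.1 CPM in MR1, 6.59 in MR3, 11.3 in MR3_4, 25.2 in MR4_5 and 26.8 in MR5. In the Model libraries it was 4.85 CPM in MXL1, 6.39 in MXL12, 3.57 in MXL3_4 and 1.62 in MXL_3. The groups did not overlap, although MR3 and MXL12 almost met. The means were 17.8 ± 8.72 CPM (SD, n = 5) and 4.11 ± 2.02 CPM (SD, n = 4), a 4.33-fold difference and a log2 fold change of 2.11 (SE 0.50). It was the single one of the 10 genes whose groups did not overlap. Over all tested genes 0.231% were higher in FJDHF-M without overlap and 0.283% lower, and since the genes were chosen on this contrast nothing is read from the count. In bulk skin, fewer cells of a type and less RNA per cell cannot be told apart. Counts of 117 to 2101 stood behind these levels, so counting error was small beside the spread between libraries. That spread was itself wide, with an SD of 0.79 on the log2 scale within groups, larger than in 89.3% of tested genes.

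**Figure D1:**
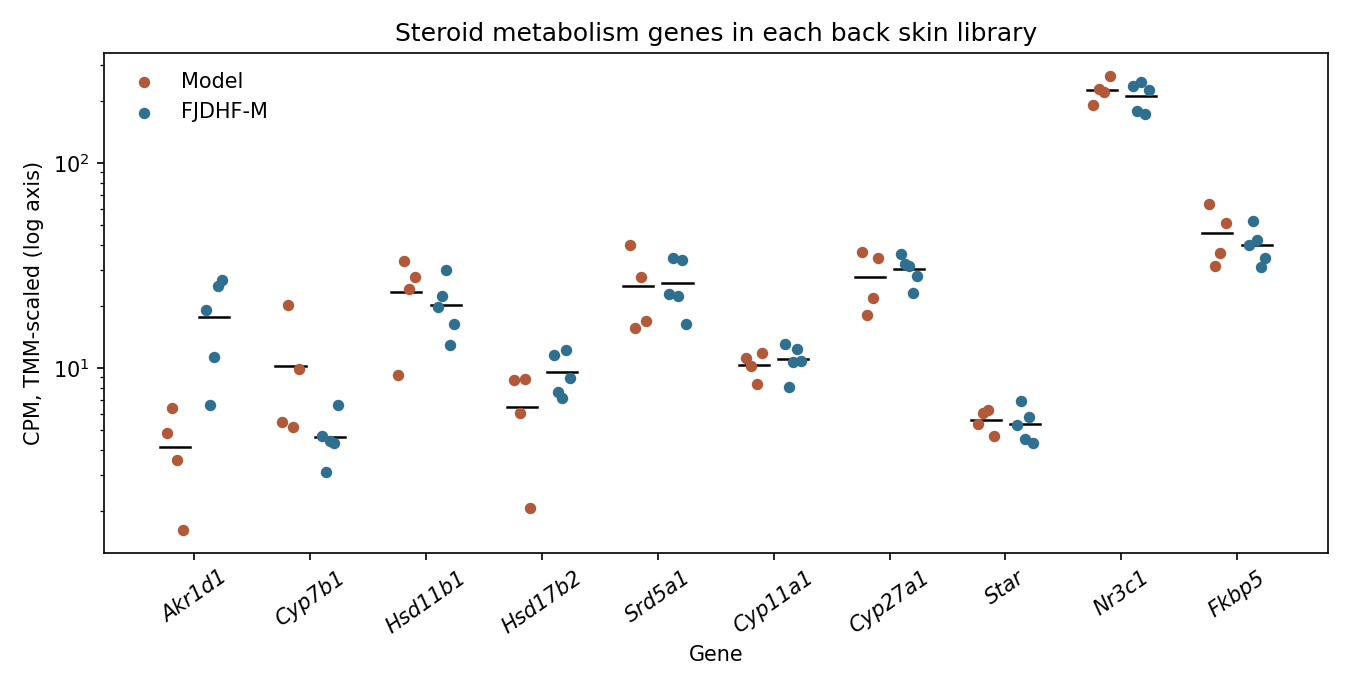
Levels of the 10 genes in each library, in TMM-scaled CPM on a log axis, with Model libraries in brown, FJDHF-M libraries in blue and group means as black lines. The groups are apart for Akr1d1 and overlap for the other 9 genes, and 1 Model library lies at 20.3 CPM for Cyp7b1.

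Differentiated keratinocyte markers moved with Akr1d1. All 9 of these markers (Krt1, Krt10, Lor, Flg, Flg2, Ivl, Casp14, Tgm3 and Klk7) had fold changes above 0 and none was at the floor in all libraries. A shared sign was common among the lists. All 7 macrophage markers were above 0, and all 7 fibroblast, 8 sebocyte, 6 neutrophil and 4 endothelium markers were below. Fibroblast markers ran opposite to Akr1d1 (r = -0.615, rho = -0.60, r = -0.33 without the 2 farthest libraries, n = 9). The 9 keratinocyte markers summed to 7520 to 14300 CPM in FJDHF-M and to 2920 to 8430 CPM in Model. Krt1, a keratin of the spinous layer, was at 2562 to 8360 CPM in FJDHF-M and at 945 to 2836 CPM in Model. The mean log2 level of the list was 0.92 higher in FJDHF-M, and over the 9 libraries it tracked Akr1d1 with Pearson's r of 0.77 and Spearman's rho of 0.63 (r = 0.86 without the 2 farthest libraries). This was the strongest of 13 marker lists for Akr1d1, and the libraries share their group difference, so its part in the result was not tested. MXL12 went against the relation, with the highest Akr1d1 level of the Model group and the second lowest marker level.

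Akr1d1 is best known from liver, where it works in bile acid synthesis. The liver transcript Alb was at 12.3 CPM in MR3 and 12.8 CPM in MR5 and at 2.20 to 3.41 CPM in the other libraries. Its log2 fold change was 1.38 (SE 0.54), higher in FJDHF-M as for Akr1d1, with an unadjusted p of 0.0285 and an adjusted p of 1.0 by edgeR. Ttr, another liver transcript of the list, had a log2 fold change of -0.41 (SE 1.58) and was highest in MXL3_4 at 9.97 CPM and MR5 at 9.51 CPM. Of the 4 tested genes of the liver list, 3 had fold changes above 0, among them Alb and Cyp2e1 (0.62, SE 0.64), and 1, Ttr, below. Cyp2e1 was at 54.5 to 642 CPM, and the whole list summed to 57.6 to 652 CPM. Cyp2e1 was highest in MR3_4 and lowest in MR4_5, as were the white adipocyte markers, and the source of its RNA was not tested. The library MR4_5, with 25.2 CPM of Akr1d1, had 2.54 CPM of Alb, and MR3, with the lowest Akr1d1 level of its group, had one of the 2 highest Alb levels. The liver list of 6 genes tracked Akr1d1 with r of 0.13 (rho = 0.12, r = 0.14 without 2 libraries, n = 9), and its part in the Akr1d1 difference was not tested.

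**Figure D2:**
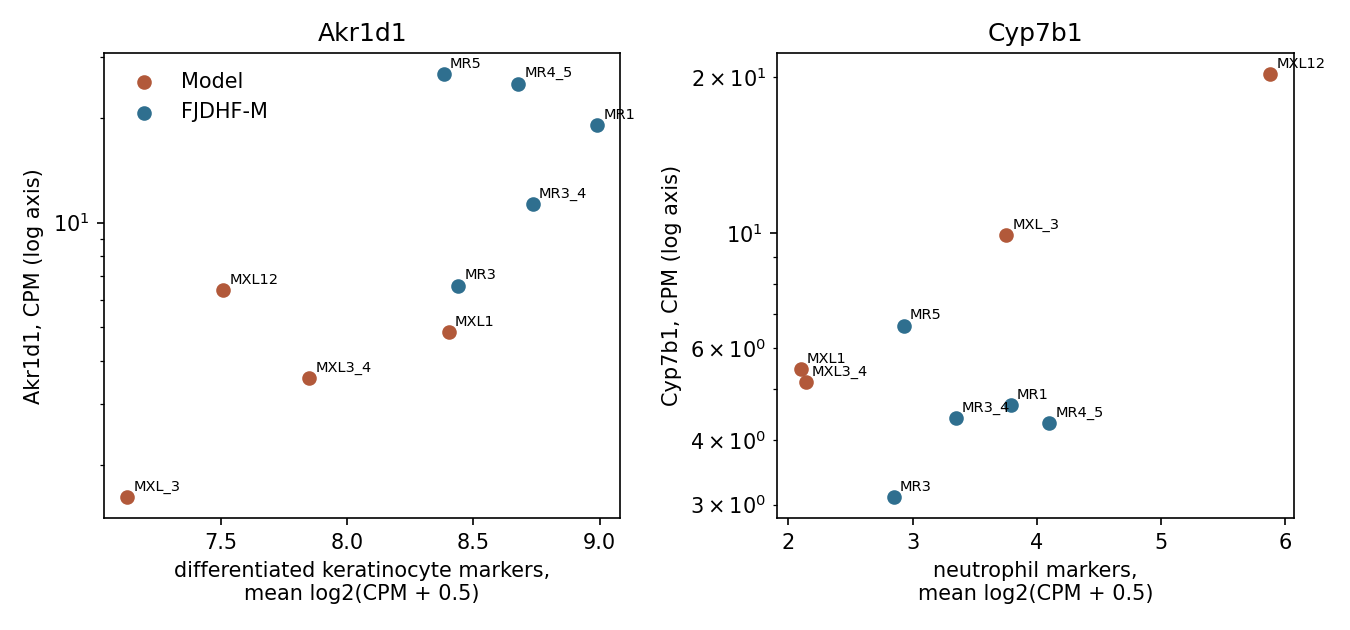
Left, Akr1d1 against the mean log2(CPM + 0.5) of 9 differentiated keratinocyte markers, and right, Cyp7b1 against that of 6 neutrophil markers, with 1 point per library and CPM on a log axis. FJDHF-M libraries (blue) lie at marker levels of 8.38 to 8.99 and Model libraries (brown) at 7.13 to 8.40 on the left, and MXL12 stands alone at 5.88 on the right.

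The genes most like Akr1d1 across the 9 libraries were sought among 15714 genes with a mean of at least 1 CPM. The 5 highest by Pearson's r of log2(CPM + 0.5) were Clec2g (0.986), Rptn (0.978), Rbp2 (0.969), Sox7 (0.968) and Tdh (0.958). As the best of so many they were bound to have high values, and leaving out the 2 farthest libraries gave 0.978, 0.977, 0.976, 0.941 and 0.959. Rptn, which encodes the cornified envelope protein repetin, was at 463 to 1564 CPM in FJDHF-M and at 90.3 to 525 CPM in Model, so its groups overlapped. Clec2g, a C-type lectin gene, was at 6.67 to 17.4 CPM in FJDHF-M and at 3.42 to 7.85 CPM in Model. Rbp2 was at 29.9 to 59.3 CPM in FJDHF-M and at 9.66 to 27.1 CPM in Model, without overlap. Log2 fold changes of the 5 genes ran from 0.50 for Sox7 to 1.87 for Rptn, so a group difference shared with Akr1d1 enters these r values.

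Srd5a1 (chr13:69573449-69611442, minus strand), the 5α-reductase that turns testosterone into dihydrotestosterone, did not share the pattern of Akr1d1. Its levels were 23.1, 34.5, 22.4, 33.8 and 16.4 CPM in MR1, MR3, MR3_4, MR4_5 and MR5, and 39.9, 15.7, 27.7 and 16.9 CPM in MXL1, MXL12, MXL3_4 and MXL_3. The highest and the lowest library were both Model, and the log2 fold change was 0.06 (SE 0.32). Srd5a1 followed the basal keratinocyte markers instead (r = 0.91, rho = 0.92, r = 0.85 without 2 libraries, n = 9). It also followed the hair shaft and root sheath markers (r = 0.80, rho = 0.72, r = 0.74 without 2 libraries). Mast cell (r = -0.77, rho = -0.65) and endothelium markers (r = -0.74, rho = -0.70) ran opposite to it, and its cell source was not tested. On the FPKM scale, which corrects for length, the ratio of Akr1d1 to Srd5a1 was 0.833, 0.192, 0.507, 0.75 and 1.64 in the FJDHF-M libraries in the same order. It was 0.122, 0.408, 0.129 and 0.0959 in the Model libraries, so the groups overlapped through MR3 and MXL12, and Akr1d1 exceeded Srd5a1 in MR5 alone.

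Hsd17b2 (chr8:117701904-117759027, plus strand), which oxidises oestradiol and testosterone to weaker forms, had the next highest fold change. It was at 11.6, 7.61, 7.12, 12.3 and 8.94 CPM in FJDHF-M and at 8.79, 6.06, 8.81 and 2.08 CPM in Model, each in the library order above. MXL_3 lay lowest, and the other 3 Model libraries lay within or just below the FJDHF-M range. The log2 fold change was 0.56 (SE 0.39), and 0.27 without MXL_3. Its levels followed Akr1d1 with r of 0.75 (rho = 0.67, r = 0.74 without 2 libraries, n = 9) and the differentiated keratinocyte markers with r of 0.81 (rho = 0.57), which fell to 0.35 without the 2 farthest libraries.

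Hsd11b1 (chr1:193221634-193243561, minus strand) was at 19.9, 22.5, 30.2, 13.0 and 16.5 CPM in FJDHF-M and at 9.21, 33.1, 24.3 and 27.7 CPM in Model. The Model group held both the lowest and the highest level, and the log2 fold change was -0.21 (SE 0.36). Its counterpart Hsd11b2, which inactivates glucocorticoid, was far lower, and on the FPKM scale Hsd11b1 exceeded it 7.21- to 78.5-fold, a ratio that rests on 9 to 74 counts of Hsd11b2. Hsd11b1 ran opposite to the basal keratinocyte markers (r = -0.85, rho = -0.75, n = 9), and less so without the 2 farthest libraries (r = -0.50).

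Cyp7b1 (chr3:18071950-18243338, minus strand), which hydroxylates oxysterols and the androgen precursor DHEA, was the other gene that led the choice, and it was lower in FJDHF-M. Its levels were 4.66, 3.10, 4.41, 4.31 and 6.64 CPM in FJDHF-M and 5.48, 20.3, 5.17 and 9.94 CPM in Model. MXL12 was the highest by far, and MR5 lay above MXL1 and MXL3_4, so the groups overlapped. The means were 4.62 ± 1.28 CPM (SD, n = 5) and 10.2 ± 7.05 CPM (SD, n = 4), and Cyp7b1 was 2.21-fold lower by the fit, with a log2 fold change of -1.14 (SE 0.42). Without MXL12 the log2 fold change was -0.57.

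MXL12 also had the highest neutrophil marker level, 5.88 on the mean log2 scale against 2.10 to 4.10 in the other libraries. The 6 neutrophil markers summed to 26.4 to 544 CPM in Model and 47.1 to 152 CPM in FJDHF-M, and none was at the floor in all libraries. Across the 9 libraries r between this list and Cyp7b1 was 0.69, rho 0.17, and r without the 2 farthest libraries -0.29, so the relation rests on those libraries. The differentiated keratinocyte markers that moved with Akr1d1 ran opposite to Cyp7b1 more closely, with r of -0.73 and rho of -0.77, and here too r shrank, to -0.25, without the 2 farthest libraries. For the basal keratinocyte markers r was -0.60, rho -0.67, and r without 2 libraries -0.22. The part of neutrophils or keratinocytes in the Cyp7b1 level was not tested. The 5 genes most like Cyp7b1 were Crem (0.957), Atp8b1 (0.948), Chst11 (0.944), Hgf (0.942) and Tmem156 (0.94), and each of them was highest in MXL12. Without the 2 farthest libraries their r was 0.663, 0.836, 0.812, 0.796 and 0.842, lower than for the genes like Akr1d1.

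Cyp27a1 (chr1:74713574-74737892, plus strand), the mitochondrial sterol hydroxylase, was at 35.9, 32.3, 31.5, 23.3 and 28.2 CPM in FJDHF-M and at 37.0, 18.1, 22.0 and 34.4 CPM in Model. The FJDHF-M range lay inside the Model range, and the log2 fold change was 0.12 (SE 0.24). Cyp27a1 followed the skeletal muscle markers (r = 0.80, rho = 0.73, r = 0.57 without 2 libraries, n = 9), which differed between libraries more than between groups.

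The entry into steroid synthesis was low and even. Cyp11a1 (chr9:58006411-58027023, plus strand) was at 8.11 to 13.1 CPM, median 2.18 FPKM, in FJDHF-M and at 8.35 to 11.8 CPM, median 2.12 FPKM, in Model, with a log2 fold change of 0.09 (SE 0.21). It shares 145 exonic bases with Gm17322 on the same strand, so some reads could belong to either. Star (chr8:25806555-25815982, plus strand) was at 4.32 to 6.91 CPM in FJDHF-M and at 4.66 to 6.23 CPM in Model, with a log2 fold change of -0.06 (SE 0.23). Their SD within groups was 0.24 and 0.22 on the log2 scale, against a median of 0.36 over all tested genes. Of the last steps to corticosterone, Cyp11b1 was near the floor at 0 to 4 counts per library, and Cyp21a1 was low at 0 to 59 counts.

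Nr3c1, on chromosome 18, was the most abundant of the 10 genes. It was at 238, 180, 250, 173 and 226 CPM in FJDHF-M and at 192, 229, 222 and 267 CPM in Model, with a log2 fold change of -0.09 (SE 0.17). Fkbp5 (chr17:28399094-28517527, minus strand) was at 39.7, 52.1, 42.2, 31.1 and 34.4 CPM in FJDHF-M and at 63.3, 31.6, 36.2 and 51.2 CPM in Model, with a log2 fold change of -0.19 (SE 0.24). The groups overlapped for both genes. The ratio of Nr3c1 to Fkbp5 in FPKM was 4.25 to 8.11 in FJDHF-M and 3.74 to 8.94 in Model. Fkbp5 followed the skeletal muscle markers (r = 0.74, rho = 0.85, r = 0.93 without 2 libraries, n = 9). The part of muscle RNA in its level and in this ratio was not tested.

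**Figure D3:**
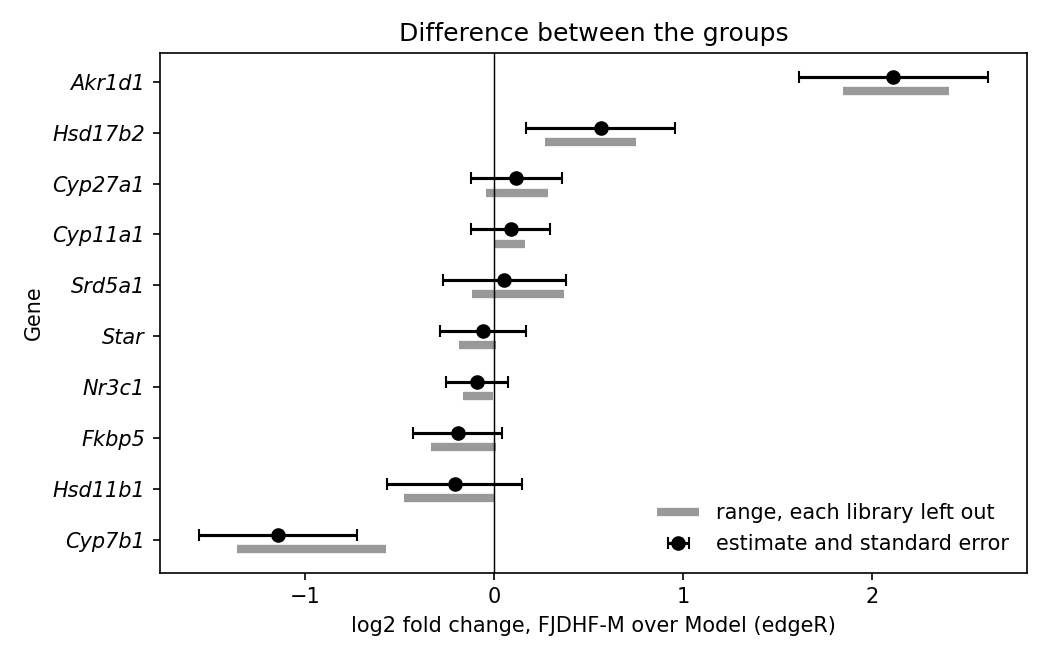
Log2 fold change of each gene, FJDHF-M over Model, from edgeR's fit, with points and bars for the estimate and its standard error and grey bars for the range over fits that each lacked 1 library. Akr1d1 stays between 1.85 and 2.41 and Cyp7b1 between -1.36 and -0.57, while 5 of the other genes have grey bars that cross 0.

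Ordered by mean FPKM over the 9 libraries, the genes ran from Nr3c1 (27.1 ± 3.21, SD, n = 9) through Cyp27a1 (12.8 ± 2.93), Srd5a1 (8.41 ± 3.09), Hsd11b1 (4.84 ± 1.68), Fkbp5 (4.26 ± 1.13), Hsd17b2 (4.04 ± 1.55), Akr1d1 (3.88 ± 3.23), Cyp7b1 (3.10 ± 2.30) and Cyp11a1 (2.12 ± 0.34) to Star (1.26 ± 0.22). Nr3c1 lay above Cyp27a1 in all 9 libraries with no overlap of their ranges, and Cyp11a1 lay above Star in all 9. Cyp27a1 exceeded Srd5a1 in 8 and Srd5a1 exceeded Hsd11b1 in 7, though their ranges overlapped. From Hsd11b1 to Cyp11a1 each gene exceeded the next in only 5 or 6 of the 9 libraries, so no order common to both groups is read from them. For pairs with Akr1d1 the order went with the group. Akr1d1 exceeded Cyp7b1 in every FJDHF-M library and in no Model library. Hsd17b2 exceeded Akr1d1 in every Model library and, within FJDHF-M, in MR3 alone. Akr1d1 moved most in this order, from 5.91 ± 2.99 FPKM (SD, n = 5) in FJDHF-M to 1.34 ± 0.68 FPKM (SD, n = 4) in Model.

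The other genes of these pathways gave a setting for the 10. In 11 lists there were 166 other genes, of which 123 were tested. edgeR called none of them at the same thresholds, as it called none of all tested genes (0.0%), nor did DESeq2 or limma. At an unadjusted p under 0.05 edgeR found 0 higher and 1 lower, against 0.773% higher and 0.793% lower of all tested genes. None had groups that did not overlap, against 0.231% higher and 0.283% lower of all tested genes. At shares this small few are expected among 123 genes, so nothing is read from these counts. Their fold changes were above 0 for 55 and below 0 for 68, against 9186 above and 11631 below over all tested genes. Their median log2 fold change was -0.02, against -0.03 over all tested genes.

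The 1 lower gene was Cyp1b1, an enzyme that hydroxylates oestrogens and foreign aromatic compounds. It was at 115 to 140 CPM in FJDHF-M and at 124 to 298 CPM in Model, and 2 Model libraries, MXL12 at 298 CPM and MXL3_4 at 216 CPM, lay above all others. Its log2 fold change was -0.60 (SE 0.25), with an unadjusted p of 0.037 and an adjusted p of 1.0 by edgeR. Among the steroid hormone genes of the KEGG annotation, where 31 others were tested, Cyp3a13 had a log2 fold change of 0.81 (SE 0.38) and an unadjusted p of 0.0596 by edgeR, and Cyp2e1 was the most abundant at 54.5 to 642 CPM.

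**Figure D4:**
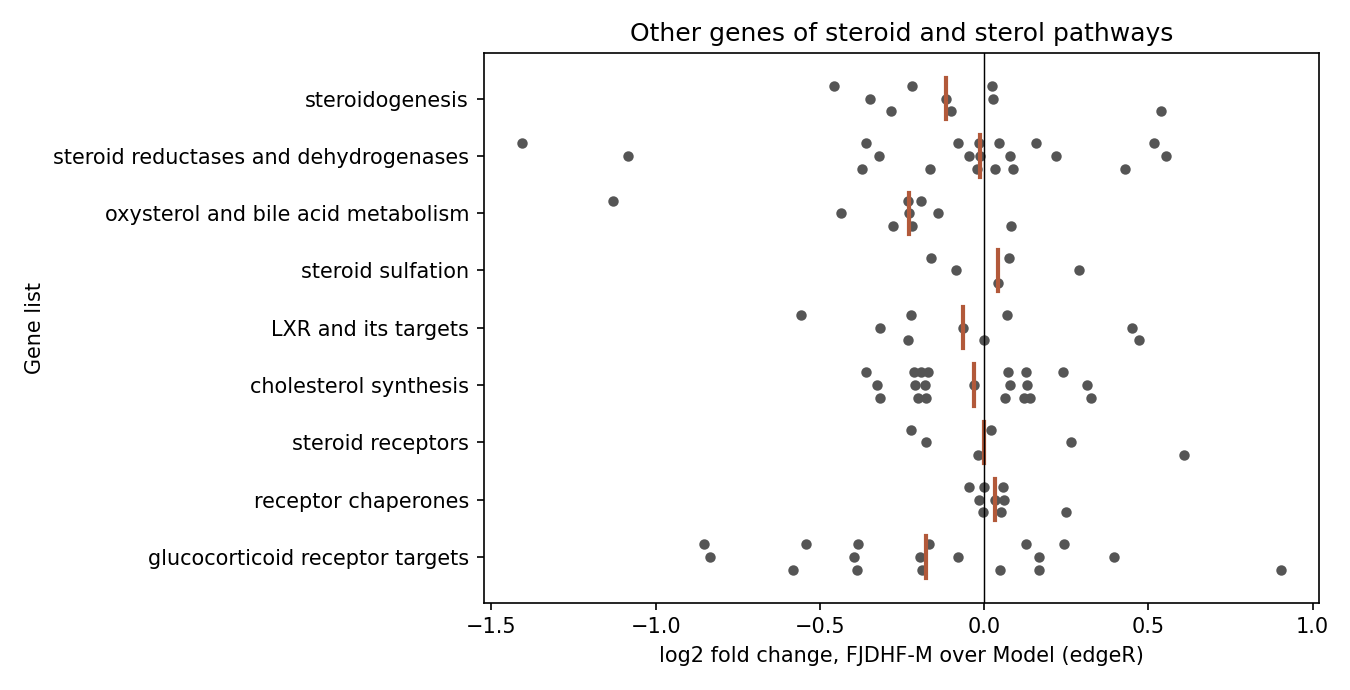
Log2 fold changes, FJDHF-M over Model, of the other tested genes in 9 of the lists, with 1 grey point per gene and the list median as a brown line. The medians lie between -0.23 for oxysterol and bile acid metabolism and 0.04 for steroid sulfation.

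Of the other 9 tested genes of oxysterol and bile acid metabolism, 8 had fold changes below 0 and 1 above, with a median of -0.23. Over all tested genes 11631 of 20817 were below 0. None of the 9 passed the test, and neither did any of all tested genes (0.0%). Cyp39a1, an oxysterol hydroxylase, had a log2 fold change of -0.19 (SE 0.19), Scp2, a sterol carrier, -0.14 (SE 0.17) and Hsd3b7 -0.22 (SE 0.44). Ch25h was at 0 to 56 counts. Cyp7a1, the first enzyme of bile acid synthesis in liver, had too few counts to be tested, 0 to 8 per library and at or under the floor in most libraries.

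Of the other 21 tested steroid reductases and dehydrogenases, 10 had fold changes above 0 and 11 below, with a median of -0.01. Srd5a2, the second 5α-reductase, was at 0.106 to 1.42 CPM in FJDHF-M and 0.277 to 3.16 CPM in Model, with a log2 fold change of -1.41 (SE 0.79). Hsd17b12, which elongates fatty acids, was the most abundant of the list at 162 to 391 CPM, with a log2 fold change of -0.37 (SE 0.27). Hsd17b4, a peroxisomal enzyme, had -0.16 (SE 0.15) and Akr1cl -0.32 (SE 0.21). In steroid synthesis 3 of 9 other genes had fold changes above 0 (median -0.12), with Cyp17a1 at -0.35 (SE 0.26), Tspo at -0.46 (SE 0.69), Por at -0.10 (SE 0.49) and Hsd3b6 at -0.22 (SE 0.57).

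No other receptor or chaperone passed the test, which none of all 20817 tested genes passed (0.0%). Of 6 other receptors, 3 had fold changes above 0, with the oestrogen receptor Esr1 at 0.02 (SE 0.32) and Gper1, at 0.051 to 1.35 CPM, at 0.61 (SE 0.89). Among 9 other chaperones the range was -0.05 to 0.25, with Hspa8 at 0.25 (SE 0.19) and Hsp90ab1 at 0.06 (SE 0.17). The 18 other glucocorticoid receptor targets spread from -0.85 to 0.91, with 7 above 0, 11 below and a median of -0.18. Errfi1 was at -0.39 (SE 0.22), Pdk4 at -0.83 (SE 0.50), Anxa1 at -0.19 (SE 0.27) and Glul at 0.17 (SE 0.22), and none passed the test.

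Sterol supply was divided as well. Of 21 cholesterol synthesis genes, 10 had fold changes above 0 and 11 below (median -0.03), with Ebp at 0.33 (SE 0.17), Dhcr7 at 0.31 (SE 0.23) and Hmgcs1 at -0.32 (SE 0.26). Among LXR, the oxysterol-sensing receptor, and its targets, 4 of 9 were above 0. Smpdl3a was at 123 to 230 CPM in FJDHF-M and 107 to 152 CPM in Model, with a log2 fold change of 0.45 (SE 0.21) and an unadjusted p of 0.0559 by edgeR, while Abcg1 had 0.47 (SE 0.37) and Apoe -0.56 (SE 0.73). Of 5 sulfation genes 3 were above 0, with Sult1a1 at 0.29 (SE 0.36), Papss2 at -0.09 (SE 0.16) and Papss1 at 0.04 (SE 0.31). The KEGG bile acid list had 2 of 10 above 0 and a median of -0.20. It shares genes such as Ch25h, Scp2 and Cyp7a1 with the oxysterol and bile acid list, so it is not a separate observation.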

How the data were processed

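Back skin RNA of 9 libraries was measured by strand-specific, paired-end sequencing of polyadenylated RNA. The authors deposited whole-number read counts for 55401 genes, without normalization, and FPKM values, which are counts scaled by them for gene length and depth, for 34637 genes. The submitters' processing notes name HISAT, StringTie, DESeq2 and the build mm10, and how reads were assigned to genes is not given in the sources used here. The FPKM table holds 9 further per-library count columns, identical to the count table, which were not used.

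Counts were fitted with edgeR 4.0.16 in R 4.3.3 (filterByExpr, TMM, quasi-likelihood test, Benjamini-Hochberg over 20817 genes, no covariate). Fold changes are FJDHF-M over Model, standard errors are from this fit, and 3 counts were taken as the floor, which covers counting error only. Total counts of 74648669 to 79474215 per library made counting error small for all 10 genes. FPKM was used only to compare levels between genes. Marker levels are means of log2(CPM + 0.5). The fit was tested on simulated counts.

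The 10 genes and the lists were chosen with earlier results of these data known. Beyond the 10, the text names in each list the 2 genes with the smallest unadjusted p and the 2 with the highest mean FPKM, and the 5 genes most like Akr1d1 and Cyp7b1. Some genes that this rule selects are not reported here. Hsd11b2, Cyp11b1, Cyp21a1, Cyp7a1, Krt1, Alb and Ttr were named after their values were seen. In all 130 correlations of the 10 genes with 13 marker lists and 45 between the genes were computed, and those quoted were picked for their size or for the question at hand. Alternatives were DESeq2 size factors, the Wald test of DESeq2 1.42.0, limma 3.58.1 on log2(FPKM + 1), testing genes of any count above 0 or only those with 10 or more counts in each library, adding the level of the skeletal muscle markers as covariate, a pseudocount of 0.1, leaving out each library, and a replicate block. Promoters came from RefSeq (GRCm38.p6) and gene structures from GENCODE M21, read with Python 3.11.15, and figures used matplotlib 3.10.9.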

Additional observations from a re-analysis of the deposited data

Results flagged for a closer look

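The libraries within each group were compared for genes, marker levels and total counts. In 4 of 136 comparisons 1 library lay farther from the rest than Dixon's 95% critical value for a group of that size. Chance alone gives about 6.8 in 136 independent comparisons. These share the same libraries and are not independent, so the number does not settle whether a library is aberrant. Of the 4, 3 fell in MR5, and none of the 10 genes was among them. Hsd17b12 was low in MXL_3, at 162 CPM against 351 to 391 CPM in the other Model libraries (ratio 0.878). In MR5, Papss1 was low at 43.4 CPM against 84.3 to 106 CPM (ratio 0.743), Abcg1 was low at 14.6 CPM against 38.6 to 44.9 CPM (ratio 0.864) and Chst11 was high at 32.0 CPM against 18.1 to 19.7 CPM (ratio 0.854).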

How the results depend on the processing

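Akr1d1, Cyp7b1, Hsd17b2 and Nr3c1 kept their direction under all 16 alternatives to the fit, with log2 fold changes of 1.49 to 2.41, -1.36 to -0.57, 0.27 to 0.75 and -0.16 to -0.01. All alternatives reuse the same libraries. For Nr3c1 the estimate of -0.09 is smaller than its SE of 0.17, so no direction is read from it. The other 6 genes changed sign under at least 1 alternative, namely Srd5a1 under 5 (-0.11 to 0.37), Star under 2 (-0.18 to 0.02) and Hsd11b1 (-0.48 to 0.37), Cyp11a1 (-0.002 to 0.16), Cyp27a1 (-0.04 to 0.29) and Fkbp5 (-0.33 to 0.01) under 1 each, so no direction is given for them. Besides leaving out MXL12 (-0.57), limma on log2(FPKM + 1) gave -0.70 for Cyp7b1. The plain difference in mean log2 CPM of Cyp7b1 was -0.89 with a pseudocount of 0.5 and -0.94 with 0.1. Why these values differ from the fit was not tested.

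The number of listed genes tested changed with the setting. The count of other listed genes at an unadjusted p under 0.05 was 1 of 123 in the edgeR fit and 2 of 123 with DESeq2's Wald test. It was 8 of 162 without a filter, 2 of 112 with at least 10 counts in every library and 6 of 123 with the skeletal muscle level as covariate. Leaving out 1 library gave 0 to 9 of the 121 to 126 listed genes then tested. The count was 0 without MR1 or MR3_4, 4 without MR3, 5 without MR5 or MXL1 and 2 without MXL12 or MXL3_4. Without MXL_3 it was 9 of 125, against 484 of 21295 over all genes. Over all genes the count was 326 of 20817, and 460 of 20817 with DESeq2 or the muscle covariate. It was 905 of 34637 without a filter and 281 of 17485 with at least 10 counts in every library. With 1 library left out it was 217 to 734 of 20459 to 21372 genes. No listed gene passed the adjusted threshold under any of these, and over all genes only DESeq2's Wald test called any, 2 in number. The cause of these changes was not tested.

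Numbers shared by the column codes gave a replicate block on 6 libraries. Deviations of same-numbered libraries correlated at 0.22, -0.22 and 0.12, so the numbers were not taken to pair them. The block gave log2 fold changes of 1.89 for Akr1d1 and -0.71 for Cyp7b1. At an unadjusted p under 0.05 by edgeR it found 1 of 125 other listed genes, against 256 of 20628 over all genes.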
